A study of Drosophila melanogaster with 4 samples.

Results

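The transcripts described here form a block near the distal end of chromosome arm 3R, the right arm of the third chromosome of *Drosophila melanogaster*. Its members are the rows of the expression table whose FlyBase transcript number lies from FBtr0084139 to FBtr0085563, which gave 1153 of the 15634 rows measured. The first and last identifiers span 1425 numbers, of which 272 had no row. Transcript levels were compared between Mbn2 cells, a line derived from larval blood cells of the tumour mutant l(2)mbn, and Kc cells, a line derived from embryos. Each line had 2 untreated samples, termed biological replicates in the series' design text, with 1 single-colour (Cy3) NimbleGen array per sample. Mbn2 cells were kept in a medium with fetal calf serum and Kc cells in a serum-free medium, so line and medium cannot be told apart, and nothing in the labels says what separated the replicates of a line. The p-values therefore measure the spread between these samples, which may be technical.

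Genes are closely packed along a fly chromosome arm, and transcripts next to each other in an annotation may come from neighbouring genes, from tandem copies of a gene or from alternative forms of 1 gene. Chromosome order can be followed only indirectly in these data, because rows carry transcript identifiers and no positions. A RefSeq gene table records the identifier of 6 block members, all on 3R, and the other 1147 are unnamed here. All 13 rows of 3R that the table names, inside and outside the block, follow one another by number as they do by position. The fit between numbers and genes was uneven, with 15 rows against 70 protein-coding RefSeq genes between the named members Wdr24 and CG7950, and 454 rows against 356 genes between PIG-P and Wdr24. The order by number is therefore taken as an approximate order along the arm, and membership of 3R was not checked for unnamed rows. Whether rows next to each other belong to 1 gene could not be read from the files. Of 18 marker genes of plasmatocytes, crystal cells and lamellocytes, the blood cell types of the larva, 0 could be identified by name, so the origin of either line was not checked against markers.

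Of the 1153 block members, 254 had a higher level in Mbn2, 284 had a higher level in Kc, and 615 were not called (limma, Benjamini-Hochberg adjusted p under 0.05 over all rows). These are 22.0% and 24.6% of the block, beside 21.2% and 27.0% of all 15634 transcripts, so the block as a whole was called about as often as the table. At least 2-fold differences were found for 136 members higher in Mbn2 and 102 higher in Kc, or 11.8% and 8.85%, beside 10.5% and 10.2% in the table. The median difference, Mbn2 minus Kc on the log2 scale, was -0.04 over the block and -0.05 over the other 14481 rows. These block counts are close to the background and are no result about the block, and the median turned to 0.00317 without Kc replicate 2. A bulk level cannot tell fewer cells expressing a gene from less RNA per cell.

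**Figure D1:**
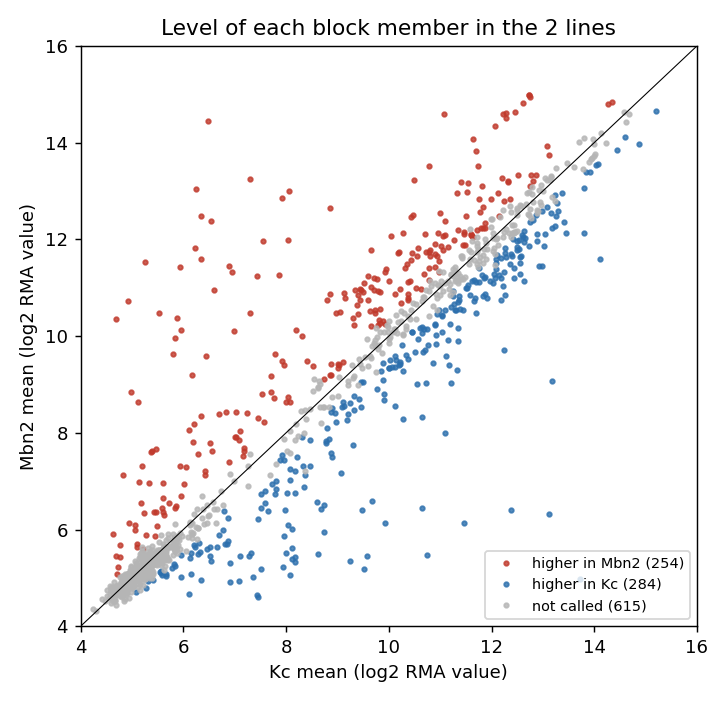
Mean log2 RMA value of each of the 1153 block members in Kc (horizontal axis) and Mbn2 (vertical axis); red points were higher in Mbn2, blue points higher in Kc, grey points were not called, and the line marks equal values. Most members lie along the line, and a minority of bright transcripts of one line sit close to the lowest values in the other.

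All 6 block members with a gene name passed the test, and all had a mean over 9 in both lines. Of all transcripts 48.2% passed, and of those with a mean over 9 in both lines 59.2% did. Of the 6 named members, 2 were higher in Mbn2 and 4 in Kc, and only Wdr24 differed by more than 2-fold. Wdr24 (FBtr0085543) encodes a subunit of GATOR2, a complex that relieves GATOR1 inhibition of TORC1, the kinase complex that couples growth to amino acid supply. Its log2 RMA values were 12.46 and 12.55 in Mbn2 cells and 10.49 and 10.47 in Kc cells. The Mbn2 values were both about 2 log2 units above the Kc values, and replicates of a line lay within 0.1. The difference was 2.03 with a standard error of 0.10, or 4.09-fold higher in Mbn2 (adjusted p = 4.74e-05, limma). Of the 5 GATOR2 genes listed, mio was the only other one identified on the array; it lies outside the block, with 9.86 and 9.85 in Mbn2 cells and 9.67 and 9.65 in Kc cells, and its difference of 0.19 did not pass (95% interval -0.05 to 0.44, limma adjusted p = 0.166). None of 3 GATOR1 genes and none of 3 TORC1 genes could be identified, 0 of each list.

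The other 5 named members are transcripts that RefSeq records as carrying reading frames of more than 1 named gene, and 1 array value cannot tell those frames apart. FBtr0084782 carries Mocs2B and Mocs2A, the large and small subunits of molybdopterin synthase, which builds the sulfur ligand of the molybdenum cofactor. Its values were 11.86 and 11.55 in Mbn2 cells and 12.35 and 12.39 in Kc cells. The lines did not overlap, and the gap between replicates was wider in Mbn2 than in Kc. Lines that did not overlap were common, in 71.8% of block members, and the share over all rows is not given. Kc had the higher level by 1.59-fold (difference -0.67, standard error 0.14, limma adjusted p = 0.0103). These are 2 of 11 listed genes of molybdenum cofactor synthesis and its enzymes, and no other gene of that list was identified. Without moderation of the variances the adjusted p of this transcript was 0.119 (0.000258 to 0.119 over all settings).

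FBtr0084211 carries CG7071 and Muted, the fly counterpart of a subunit of BLOC-1, a complex that acts in the making of lysosome-related organelles. Its values were 10.73 and 10.59 in Mbn2 cells and 11.32 and 11.20 in Kc cells, 1.52-fold higher in Kc (limma adjusted p = 0.00695, with 0.000307 to 0.0672 over all settings and the highest without moderation). FBtr0084974 carries PIG-P, a subunit of the enzyme that starts synthesis of the GPI membrane anchor, and Tcs6, the Pcc1 subunit of the complex that makes the t6A modification of tRNA. It stood at 11.36 and 11.08 in Mbn2 cells and at 12.00 and 11.76 in Kc cells, 1.58-fold higher in Kc. This was the least certain of the named calls, since its limma adjusted p of 0.014 became 0.0561 without Kc replicate 1, 0.0698 without Mbn2 replicate 2 and 0.144 without moderation, with a lowest value of 0.000539.

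FBtr0085563, the last member of the block, carries CG7950 and Rpp14a, which is named for a protein subunit of ribonuclease P, the enzyme that trims the 5′ ends of tRNA precursors. Its values were 9.45 and 9.35 in Mbn2 cells and 10.22 and 10.17 in Kc cells. Its level in Kc was the higher by 1.73-fold (difference -0.79, standard error 0.10, limma adjusted p = 0.00185), the second largest difference among the named members after Wdr24 and in the opposite direction. FBtr0084877, with CG5116 and CG42488, had 10.29 and 10.39 in Mbn2 cells and 9.80 and 9.82 in Kc cells, 1.44-fold higher in Mbn2. Its limma adjusted p was 0.00818 and ran from 0.00175 to 0.0539 over all settings, the highest without Mbn2 replicate 2.

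**Figure D2:**
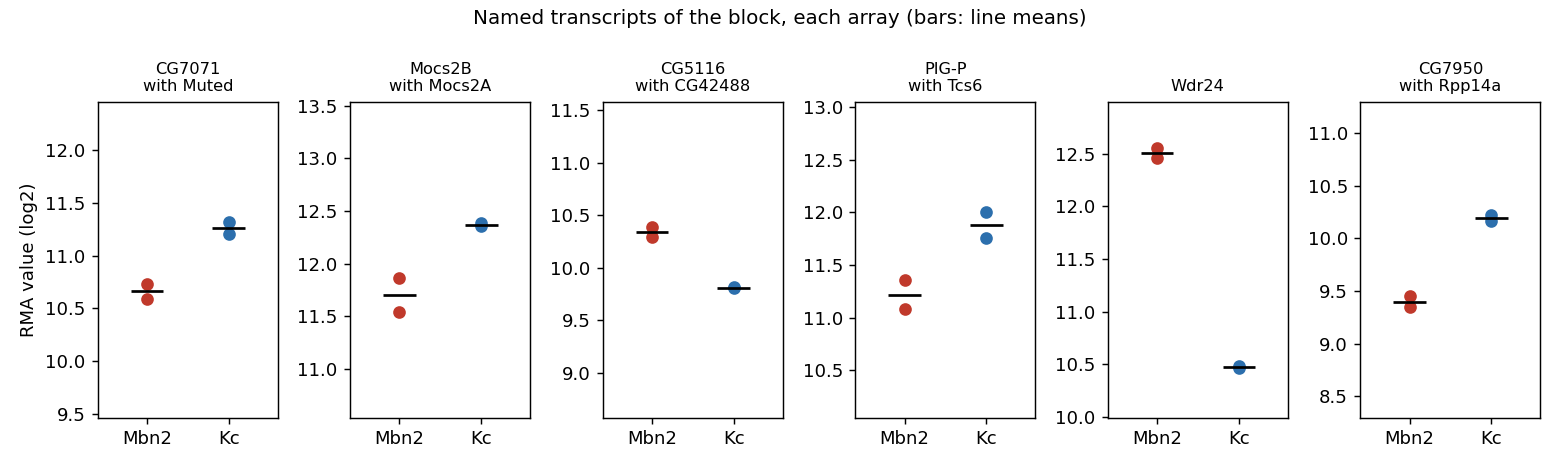
Log2 RMA value of the 6 named block members in each array, in order of identifier number, with Mbn2 at the left and Kc at the right of each panel and a bar at the mean of each line; every panel spans 3 log2 units. In each panel the 2 points of one line lie above both of the other, and the distance is largest for Wdr24. Such a separation of the lines was found in 828 of the 1153 block members (71.8%). The share over all rows is not given, so this is no result about the block.

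The differences were not spread evenly along the numbering. To look at transcripts well above the dim end of the scale, the 492 block members with a mean over 9 in both lines were taken, and among them 140 had the higher level in Mbn2 and 155 in Kc. That is 28.5% and 31.5% of them, beside 24.3% and 34.9% of all 6698 transcripts over 9. Put in order of number and divided into 10 stretches of 50 (the last of 42), they gave stretch medians from -0.31 to 0.45. The first 6 stretches, which end at FBtr0084975, all had medians below 0, and the last 4, which begin at FBtr0084976, all had medians above 0. With stretches of 25 the turn was less sharp, as 2 of the 12 before it had medians above 0 and 2 of the 8 after it had medians below 0. The named transcript of PIG-P and Tcs6 lies just before this turn. Over all transcripts past 9 the median difference was -0.11, and measured from that centre 6 of the 10 stretches were above 0, since the second and the sixth, at -0.05 and -0.04, changed sign.

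The lowest median, -0.31, belonged to the fifth stretch, FBtr0084681 to FBtr0084813, which holds the Mocs2B transcript. There 4 members (8.0%) were called towards Mbn2 and 23 (46.0%) towards Kc, beside the 24.3% and 34.9% of all transcripts over 9, and the median was -0.43 to -0.25 over the 4 pairings of an Mbn2 with a Kc array. The seventh stretch, FBtr0084976 to FBtr0085143, had a median of 0.44 (0.39 to 0.46 over the pairings), with 26 members (52.0%) called towards Mbn2 and 9 (18.0%) towards Kc. The tenth, FBtr0085443 to FBtr0085563, which contains Wdr24 and CG7950, had a median of 0.45 (0.43 to 0.50), with 22 (52.4%) and 6 (14.3%). Its members called towards Mbn2 include 7 rows of the run FBtr0085473 to FBtr0085487 and 10 of the run FBtr0085533 to FBtr0085544, described below. The pairings share arrays and show only how far single arrays move a median. Between them, the eighth and ninth stretches were nearer to 0, at 0.17 and 0.04, so the higher-numbered end was not uniformly raised. Over the pairings the ninth ran from -0.02 to 0.10, so its sign depended on the arrays paired. The second stretch ran from -0.12 to -0.000285.

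**Figure D3:**
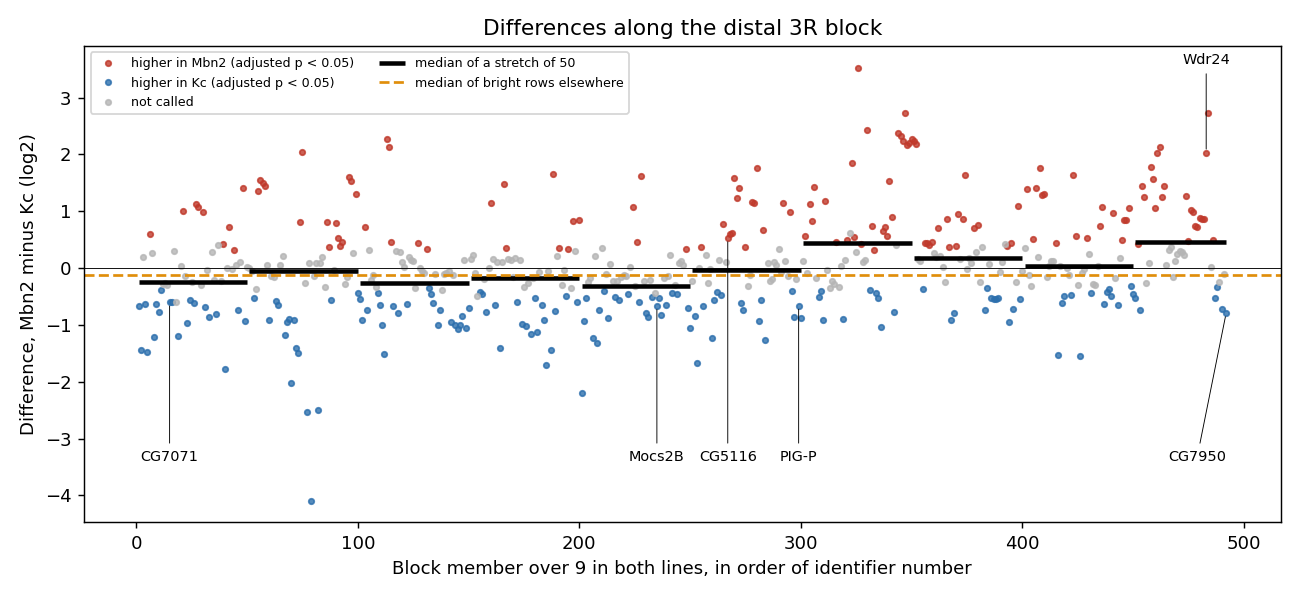
Difference between the lines (Mbn2 minus Kc, log2) for each of the 492 block members over 9 in both lines, in order of identifier number; colours give the call, black bars the medians of stretches of 50 members, and the dashed line the median of such transcripts elsewhere. The bars lie below 0 in the first 6 stretches and above 0 in the last 4, and Wdr24 is among the high points near the right-hand end.

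Stretches made the same way from all other rows served as the comparison. Of those 125 stretches, whose medians ran from -0.64 to 0.59, 2 lay at or above the seventh stretch of the block, and the same number lay at or above the tenth, while 30 lay at or below the lowest. Medians above 0 were found in 40 of the 125, so a median below 0 was the more common sign elsewhere. The SD of the stretch medians was 0.28 in the block and 0.24 elsewhere. The neighbouring rows of 3R, from the sle transcript FBtr0082231 to the CG31178 transcript FBtr0084138, gave 13 stretches between -0.58 and 0.11. The block therefore held 2 of the higher stretches of the table, and its low stretches were ordinary; no test of a stretch against others was made.

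**Figure D4:**
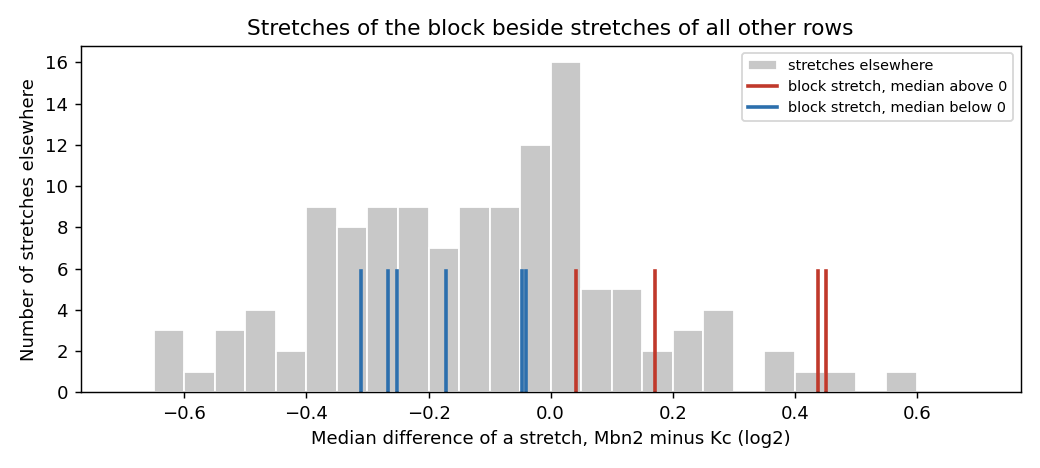
Median difference (Mbn2 minus Kc, log2) of the 10 stretches of the block, drawn as coloured lines, over a histogram of the medians of the 125 stretches formed from all other rows; line height has no meaning. The block medians at 0.44 and 0.45 lie near the upper end of the histogram, and those below 0 lie within its bulk.

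Split at the turn, a division chosen after the values were seen, the block had 300 members over 9 in a lower-numbered segment and 192 in a higher-numbered segment. In the lower-numbered segment 57 members (19.0%) were called towards Mbn2 and 115 (38.3%) towards Kc, near the 24.3% and 34.9% of all transcripts over 9, with a median difference of -0.19, or -0.08 measured from the centre of -0.11. In the higher-numbered segment 83 (43.2%) were called towards Mbn2 and 40 (20.8%) towards Kc, with a median of 0.25, or 0.36 from that centre. Among large differences, 39 members of the higher-numbered segment differed at least 2-fold towards Mbn2 and 3 towards Kc, or 20.3% and 1.56%, beside 7.78% and 7.93% of all transcripts over 9. In the lower-numbered segment the same counts were 26 and 29, or 8.67% and 9.67%, which is close to those shares. Taken array by array, the median level of the higher-numbered segment was 11.81 and 11.80 in Mbn2 and 11.34 and 11.39 in Kc, and that of the lower-numbered segment was 11.25 and 11.22 in Mbn2 and 11.49 and 11.50 in Kc. These values only describe the arrays, since the segments were divided where the sign of the stretch medians turned. Without Mbn2 replicate 2 the members of the higher-numbered segment that were higher in Kc numbered 17, and without Kc replicate 2 they numbered 25.

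Some consecutive rows were all called in one direction. Runs of at least 8 rows called in the same direction, a length chosen after the values were seen, numbered 5 in the block and held 51 members, 4.42% of it. Elsewhere 32 such runs held 297 rows, or 2.05%; of these, 9 ran towards Mbn2 and 23 towards Kc, and the longest had 14 rows. Without moderation of the variances such runs held 9 members of the block (0.781%) and 8 rows elsewhere (0.0552%). At a minimum of 8 rows each of these counts is only 1 run, so the 2 shares cannot be compared. In the block 4 runs leaned towards Mbn2 and 1 towards Kc, and 3 of those higher in Mbn2 lay in the higher-numbered segment. Those 3 runs held 26 of the 83 members over 9 that were called towards Mbn2 there. Since all their rows were called towards Mbn2, leaving them out had to lower the median and the Mbn2 counts of that segment. The Kc counts could not change. The median was then 0.13 over 166 members, with 57 called towards Mbn2 and 40 towards Kc. At least 2-fold differences fell from 39 to 20 towards Mbn2 and stayed at 3 towards Kc.

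The longest run had 12 consecutive numbers, FBtr0085533 to FBtr0085544, and included Wdr24 as its eleventh row. Every row was higher in Mbn2, by 0.47 to 2.74 log2 units (median 0.93), and 5 differed by at least 2-fold. The row after Wdr24, FBtr0085544, had the largest difference of the run, with 13.26 and 13.20 in Mbn2 cells and 10.50 and 10.49 in Kc cells (limma adjusted p = 1.43e-05). The first row, FBtr0085533, was lower on the scale, at 8.84 and 8.86 in Mbn2 cells and 7.83 and 7.59 in Kc cells, and also differed by more than 2-fold. Thus the difference of Wdr24 was shared in direction, though not in size, by the 10 rows before it and the 1 after it. Of the 15 members after the run, 2 (13.3%) were called towards Mbn2 and 6 (40.0%) towards Kc, beside 21.2% and 27.0% of all transcripts, with a median difference of -0.25.

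A run of 11 rows, FBtr0085137 to FBtr0085148, was higher in Mbn2 throughout, by 1.64 to 2.73 log2 units. Its first 9 rows were all at least 4-fold higher and resembled each other in level, with line means of 13.52 to 14.99 in Mbn2 and 10.78 to 12.76 in Kc. FBtr0085137, for example, had 14.51 and 14.67 in Mbn2 cells and 12.13 and 12.30 in Kc cells. The last of the 11, FBtr0085148, was near the dim end in Kc, with 6.77 and 7.15 in Mbn2 cells and 5.10 and 5.54 in Kc cells. These rows fall at the border of the seventh and eighth stretches. The other run of 11, FBtr0085473 to FBtr0085487, was higher in Mbn2 by 0.77 to 2.13, with 9 rows at least 2-fold. Its rows differed widely in level, from 13.27 in Mbn2 and 12.21 in Kc at the bright end to 5.45 in Mbn2 and 4.68 in Kc at the dim end.

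The lower-numbered segment held a long run in each direction. In FBtr0084443 to FBtr0084450, 8 rows were higher in Mbn2, but the size was uneven. The 4 central rows differed by 4.42 to 4.94, as in FBtr0084447 with 12.73 and 12.97 in Mbn2 cells and 7.92 and 7.94 in Kc cells, whereas the 4 outer rows differed by less than 1. In FBtr0084899 to FBtr0084907, 9 rows were higher in Kc, with differences of -3.89 to -0.56, and this was the only long run of the block in that direction. FBtr0084906 had the largest difference there, with 5.25 and 5.46 in Mbn2 cells and 9.34 and 9.15 in Kc cells. Shortly after it, the 4 rows FBtr0084913 to FBtr0084916 were all at least 4-fold higher in Kc.

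**Figure D5:**
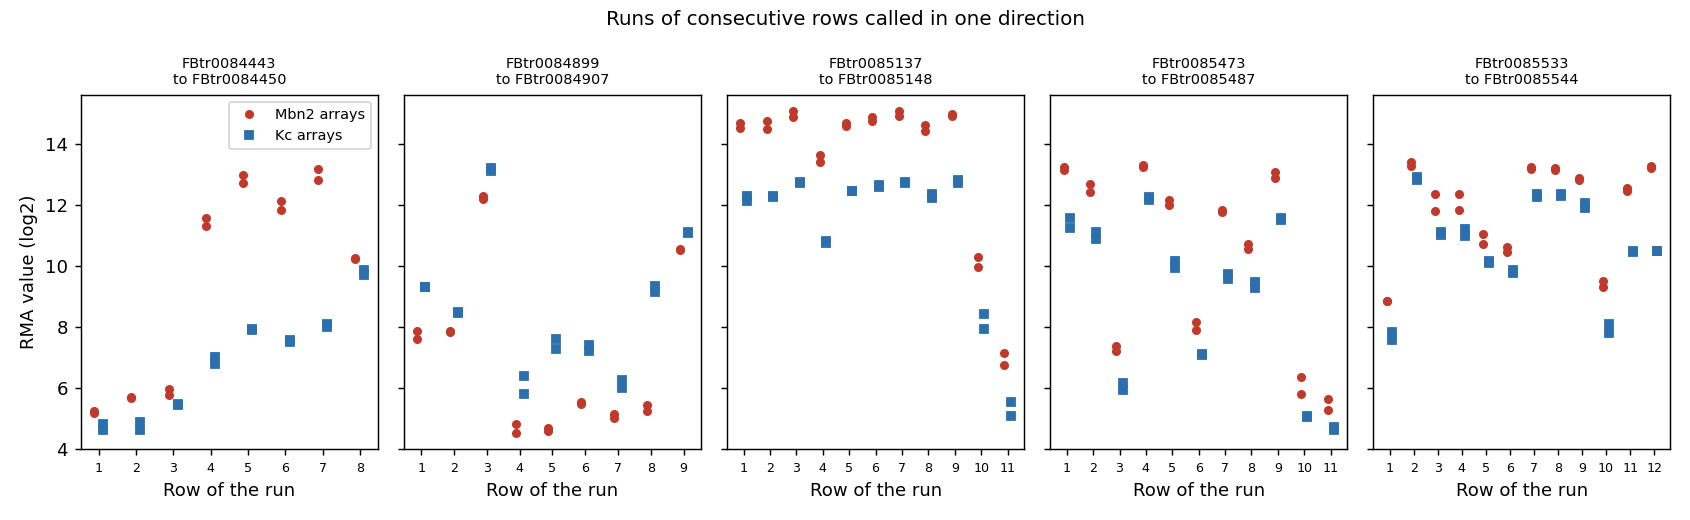
Log2 RMA value in each array for every row of the 5 runs of 8 or more consecutive block members called in one direction; red circles are Mbn2 arrays, drawn left of the blue squares of Kc arrays, and each panel is headed by the first and last identifier. Mbn2 lies above Kc in 4 runs and below it in the run from FBtr0084899, and Wdr24 is row 11 of the last panel.

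Runs of at least 3 consecutive rows with differences of at least 4-fold in one direction numbered 5 in the block, with 23 members (1.99%), beside 1.31% of rows elsewhere. In the 3 rows FBtr0084429 to FBtr0084431 the differences were 5.65 to 6.29. FBtr0084430 had 11.55 and 11.51 in Mbn2 cells and 5.19 and 5.31 in Kc cells, far apart and with close replicates. The 3 rows FBtr0084857 to FBtr0084859 were likewise bright in Mbn2, with line means of 10.38 to 11.83, and stood at 5.88 to 6.34 in Kc. Where a line was this dim, only the gap between RMA values is known, because the files give no floor for the scale.

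Adjacent rows of the block were moderately alike in their differences, and rows farther apart were less so. As a description, the differences of adjacent rows correlated at r = 0.40 over 1152 pairs, those of rows 2 apart at r = 0.18 and those of rows 10 apart at r = 0.03. Elsewhere the values were 0.30, 0.15 and 0.04. These pairs share arrays, and some may share a gene or probes. Where both rows of an adjacent pair were called, 252 of 318 pairs (79.2%) had the same direction, beside 74.3% elsewhere. Among the members over 9 the correlation was 0.35 for adjacent rows, 0.13 for rows 5 apart and 0.12 for rows 10 apart. Transcripts over 9 elsewhere gave 0.24, 0.10 and 0.06. These distances count only rows over 9, so they are longer than the same distances among all rows.

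Transcripts that were bright in one line and dim in the other made up a small share of the block. With dim as a line mean under 6 and bright as one over 8, limits taken from an earlier account of these data, 551 members were bright in both lines and 379 dim in both. Those dim in Kc and bright in Mbn2 numbered 11 (0.954%, beside 1.67% of all transcripts), with a median difference of 4.50. Those bright in Kc and dim in Mbn2 numbered 12 (1.04%, beside 1.23%), with a median of -3.07. Among members dim in both lines 7.12% were called, and 9.84% elsewhere. The lower-numbered segment, with 683 of the 1153 block members, contained 8 of the 11 and 10 of the 12. These are 1.17% and 1.46% of that segment, beside the 1.67% and 1.23% of all transcripts. With stricter limits of 5.5 and 9 the counts were 3 and 5.

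The unnamed members farthest apart show the range. FBtr0085330 had 14.37 and 14.53 in Mbn2 cells and 6.69 and 6.27 in Kc cells, a difference of 7.98 (limma adjusted p = 3.70e-06), and FBtr0084471 had 13.13 and 12.94 in Mbn2 cells and 6.39 and 6.10 in Kc cells. In the other direction FBtr0084970 had 4.81 and 5.15 in Mbn2 cells and 13.62 and 13.84 in Kc cells, a difference of -8.75 (limma adjusted p = 3.07e-06). This row lies 4 numbers before the PIG-P transcript, which was itself higher in Kc by less than 2-fold. FBtr0084913 had 6.43 and 6.20 in Mbn2 cells and 13.03 and 13.22 in Kc cells, and it opens the run of 4 rows higher in Kc described above. Replicates lay close together beside these gaps. In all of these rows but FBtr0084970 the dimmer line had a mean above 6, so they are not among the bright and dim members counted above.

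The rows on either side of each end are given as a description. The first member, FBtr0084139, differed by -0.66 and the row before it, that of CG31178, by -0.94. The last member, the transcript of CG7950 and Rpp14a, differed by -0.79 and the row after it, FBtr0085565, by -0.46. Over the 50 rows past 9 before the block the median difference was 0.02, beside -0.25 in the first stretch inside and -0.56 in its first 25 members. Over the 50 after the block it was 0.21, beside 0.45 in the last stretch inside. The spread between replicates was like that of other rows, with a median absolute difference of 0.13 in Mbn2 and 0.13 in Kc within the block.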

How the data were processed

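Total RNA of 2 Mbn2 and 2 Kc samples was hybridised to 4 arrays. The authors deposited log2 values, 1 for each row and sample, made with RMA per the submitters' processing notes. The settings of RMA, the annotation and the build used are not given in the sources read, so no coordinates are printed. Array medians lay between 8.53 and 8.62. RMA as usually run equalises the arrays, which removes differences in total signal and can compress differences of dim transcripts, and 4 arrays limit the precision of every value. All 15634 rows entered 1 two-sided fit of Mbn2 minus Kc without covariates (lmFit, then eBayes, in limma 3.58.1 under R 4.3.3), and p-values were adjusted over all rows by Benjamini-Hochberg. The fit was checked on simulated data. Names came from a RefSeq table (Release 6 plus ISO1 MT), which paired 44 rows with genes. Every named member is described, with the 2 unnamed members per direction that lay farthest apart and the rows at the ends; rows of runs were chosen after their values were seen. Members and lists were chosen with earlier results of these data known. Same-numbered replicates did not deviate together (r = -0.05). The other settings tried were no moderation, an intensity trend, a replicate block, a second quantile normalization, centring on transcripts over 9, a filter on dim rows, and each sample left out.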

Additional observations from a re-analysis of the deposited data

How the results depend on the processing

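Without moderation of the variances 136 block members were called towards Mbn2 and 139 towards Kc, 88 and 66 by at least 2-fold. Of members over 9, 34 and 60 were called in the lower-numbered segment, and 22 were higher in Kc in the higher-numbered segment. Long runs held 9 members, and 3 of the 6 named calls were left. Shares of all rows called under the other settings are not given. The counts of calls in this section therefore cannot show whether the block shifted differently from the table. A filter on rows below the median, which also takes members out of the block, gave 94 at least 2-fold higher in Mbn2 and 43 at least 2-fold higher in Kc. Limits of 5.5 and 9 gave 3 and 5 switched members. Centring moved the median to 0.0744 over members past 9, 0.0678 over all members, -0.20 in the lowest stretch, 0.56 in the highest, -0.0792 in the lower-numbered segment and 0.36 in the higher-numbered one. Stretches of 25 ran from -0.56 to 0.73 and stretches of 100 from -0.22 to 0.27. Over 10 in both lines the median was -0.072 in the block and 0.20 in the higher-numbered segment, where it was 0.22 over 8 and 0.13 without the rows of long runs.

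Leaving out single samples gave 209 to 232 members called towards Mbn2 and 211 to 261 towards Kc, 134 to 141 and 94 to 113 of them by at least 2-fold. In the lower-numbered segment it gave 42 to 46 towards Mbn2, 92 to 110 towards Kc and a median of -0.20 to -0.16. In the higher-numbered segment it gave 70 to 77 towards Mbn2, 17 to 28 towards Kc and a median of 0.22 to 0.26. Long runs held 41 to 51 members, and 4 to 6 named calls remained. The median was -0.10 to 0.00317 over all members, the highest without Kc replicate 2, -0.06 to -0.03 past 9, -0.36 to -0.27 in the lowest stretch and 0.44 to 0.54 in the highest; 10 to 11 members switched towards Mbn2 and 12 to 14 towards Kc. With a replicate block 233 members were higher in Mbn2 and 273 in Kc, and all 6 named calls held. The cause of these shifts was not tested. By construction, filters leave fewer rows, leaving out a sample leaves fewer arrays, and centring subtracts a constant. The table gives no background level, which limits what dim rows can show.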
